A study of Homo sapiens with 21 samples.

Results

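C3A cells, a human hepatoma line cloned from HepG2, were exposed to glyphosate at 5.6 µM (0.95 µg/mL) for 48 h and set against unexposed C3A cells. The comparison took the 3 glyphosate libraries and the 6 unexposed libraries out of 21 in the study. It covered every gene with at least 1 FPKM (fragments per kilobase of gene, scaled to library size) in at least 3 libraries, which was 13405 of the 28808 genes listed, 10512 of them protein-coding. The other exposed groups, 3 libraries each after 48 h, received AMPA at 34 µM (3.7 µg/mL), 2,4-D at 2.5 µM (0.56 µg/mL), glyphosate+2,4-D or AMPA+2,4-D. The labels place every concentration 1000-fold below the IC50 and give the genotype of all groups as WT. All cells grew in the same low-glucose medium with serum and antibiotics, and no vehicle is named for the unexposed cells. C3A is a single clonal tumour line, so every library shares that genome. Whether the replicates came from separate cultures is not in the labels, and p-values therefore measure the spread between these libraries, which may be technical. The labels also do not say whether exposed and unexposed cells were handled together, so glyphosate and a difference in handling shared by all exposed libraries cannot be told apart.

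Glyphosate, N-(phosphonomethyl)glycine, is a herbicide that blocks an enzyme of the shikimate pathway, which plants use to make aromatic amino acids and animals lack. AMPA (aminomethylphosphonic acid) is its main breakdown product, and 2,4-D is an auxin-like herbicide. In human cells the mitochondrial genome encodes core subunits of respiratory complexes I, III and IV and of ATP synthase, together with the rRNAs and tRNAs that translate them. Both of its strands are transcribed into long precursors that are cut largely at the tRNAs, while all other respiratory subunits come from nuclear genes.

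The glyphosate libraries held 19865002, 24352443 and 15202557 reads in genes, and the 21 libraries 15202557 to 24352443. The unexposed libraries formed 2 sets, replicates 1 to 3 and replicates 4 to 6, which the labels do not explain, and glyphosate was therefore compared with all 6 and with each set apart. Among the other exposures, AMPA+2,4-D replicates 1 and 3 stood apart, for example with 163 and 156 FPKM of MT-ND6, against 405 FPKM in replicate 2. The fetal and adult liver secretory genes AFP and ALB reached 2606 to 2724 and 3831 to 4144 FPKM in the glyphosate cells. The hepatocyte factor HNF4A was also expressed but lower, at 24.1 to 24.8 FPKM with glyphosate against 43.1 to 45.6 FPKM in unexposed cells. The defining markers COL1A2, DCN, LUM and THY1 (fibroblasts), TEK and CLEC4G (endothelium), PTPRC, CD163 and CD3E (leukocytes) and CFTR (bile duct) had no row in the tables used here. Of the endothelial list only LYVE1 reached the filter, with 1.39 to 1.62 FPKM in glyphosate cells and 0.308 to 1.05 FPKM in unexposed cells, and it was called higher. Of the leukocyte list only LYZ did, with 581 to 598 FPKM in glyphosate cells, 324 to 344 FPKM in unexposed replicates 1 to 3, against which it was higher, and 567 to 615 FPKM in replicates 4 to 6. The part of these markers in the results was not tested.

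Glyphosate cells differed from unexposed cells in 7069 of 13405 genes, 52.7% of those tested (limma on log2(FPKM + 1), Benjamini-Hochberg adjusted p under 0.05). Of these, 3708 genes (27.7%) were higher and 3361 (25.1%) lower with glyphosate, and 343 changed at least 2-fold, 219 higher and 124 lower. Against replicates 1 to 3 alone 7709 genes (57.5%) were called, and against replicates 4 to 6 alone 6844 (51.1%). Changes in the same direction against both sets were found for 2819 genes higher (21%) and 2426 lower (18.1%), while 205 genes (1.53%) were called in opposite directions. For 6099 genes (45.5%) the glyphosate values did not overlap the 6 unexposed values. The direction depended on scaling, since 52.5% of the calls were higher on the deposited scale, 37.6% after rescaling to TPM and 29.7% after rescaling without mitochondrial genes, which moved the median over all genes to -0.078 and -0.113 log2. The summed FPKM was 302953 to 306855 in glyphosate libraries and 276823 to 294902 in unexposed ones. The percentages here are the background for the gene lists that follow, and in bulk RNA fewer cells of a type and less RNA per cell cannot be told apart.

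The 12 protein-coding genes with the largest increases included IGFBP3, ANKRD1, CYR61, AKAP12, SLC2A3 and PFKFB3. IGFBP3, a binding protein of the IGF ligands (GRCh38, chromosome 7, 45912245 to 45921874), had 21.1, 23.6 and 26.9 FPKM in glyphosate cells, against 1.17, 0.879 and 1.24 FPKM in unexposed replicates 1 to 3 and 4.65, 3.65 and 4.21 FPKM in replicates 4 to 6. The glyphosate libraries were clear of both sets, and the log2 change was 3.57 against the first set and 2.26 against the second. ANKRD1 (chromosome 10, 90912096 to 90921276), a stress-induced ankyrin repeat gene and a known YAP target, had 33.6, 34.6 and 38.1 FPKM with glyphosate and 6.46 to 7.54 FPKM in the 6 unexposed libraries. Its unexposed sets lay close together, at 7.06 to 7.54 and 6.46 to 7.04 FPKM, and it rose by 2.18 ± 0.07 (log2, SE; adjusted p = 4.12e-13). CYR61, a matricellular YAP target also called CCN1, had 36.6 to 39.9 FPKM with glyphosate and 6.39 to 9.08 FPKM in unexposed cells. AKAP12, a protein kinase A scaffold, had 175, 178 and 199 FPKM in glyphosate cells, above 23.3 to 46.8 FPKM in unexposed cells. Neither gene overlapped between the groups. The neuronal-type glucose transporter gene SLC2A3 reached 50 to 57.3 FPKM with glyphosate, against 9.17 to 13.7 FPKM in unexposed cells (log2 change 2.21 ± 0.10), and PFKFB3, which makes the allosteric activator of phosphofructokinase, 11.9 to 14.3 against 3.04 to 4.04 FPKM in unexposed cells (1.64 ± 0.07). Both belong to glucose use, and both were separated from all unexposed libraries. The WNT antagonist DKK1, the linker histone HIST1H1C, the stress sensor GADD45B, the focal adhesion gene TNS1 and the ERK phosphatase DUSP5 completed the 12 protein-coding genes with HSPA6, described with the heat shock genes, and their smaller change against either set was 1.60 to 2.21 log2.

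The 12 protein-coding genes with the largest decreases included KLHDC7B, AKR1D1, UCP2, GPAM and IDH1. KLHDC7B (chromosome 22, 50545891 to 50551023), a Kelch domain gene, had 8.28, 7.67 and 6.64 FPKM in glyphosate cells, against 23.4 to 33.8 FPKM in unexposed cells, a log2 change of -1.72 ± 0.10 (SE; adjusted p = 4.20e-10). AKR1D1, the bile acid pathway 5-beta-reductase, had 1.51, 1.84 and 1.64 FPKM with glyphosate and 5.77 to 7.84 FPKM in unexposed cells. UCP2, a carrier of the mitochondrial inner membrane, had 4.04, 3.89 and 3.11 FPKM with glyphosate, against 18.4 to 21.3 FPKM in the first unexposed set (replicates 1 to 3) and 11.4 to 12.9 FPKM in the second (replicates 4 to 6). For all 3 genes the glyphosate values lay below every unexposed value. GPAM, the mitochondrial acyltransferase that starts triglyceride synthesis, had 14.9, 13.5 and 11.3 FPKM with glyphosate and 32.6 to 42.1 FPKM in unexposed cells (-1.44 ± 0.09). IDH1, the cytosolic NADP-dependent isocitrate dehydrogenase, had 54.3, 52.0 and 47.1 FPKM with glyphosate, against 161 to 166 FPKM in replicates 1 to 3 and 117 to 127 FPKM in replicates 4 to 6. Again the groups did not overlap. METTL7A, the sulfate transporter gene SLC26A1, the glycine transporter gene SLC6A9, ZBED3, the glucocorticoid-responsive factor KLF15 and the phosphate transporter family gene SLC17A2 were also among the 12, with log2 changes of -1.49 to -1.31. GSTA1 (-1.63 ± 0.21) had only 17 to 25 reads in each glyphosate library, and other GSTA genes with almost the same sequence can share them. Among other gene types, the antisense RNA LBX2-AS1 had 3.58 to 3.82 FPKM in glyphosate cells and 12.8 to 17.9 FPKM in unexposed cells, but the strand of the library kit is not stated, so reads of an antisense gene and its partner cannot be told apart. The unannotated locus AL928921.1 had 2.38 to 3.56 FPKM with glyphosate against 15.3 to 19.5 FPKM in unexposed cells. The pseudogene CYP2AB1P was also lower (-1.78 ± 0.18), while the small RNAs SNORD59A, RNU7-48P and RNA5-8SN2, which the rule named as higher, held only 5 to 50 reads per glyphosate library, as did the lower AL355803.1 (5 to 8 reads) and MIR6772 (1 to 9 reads).

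**Figure D1:**
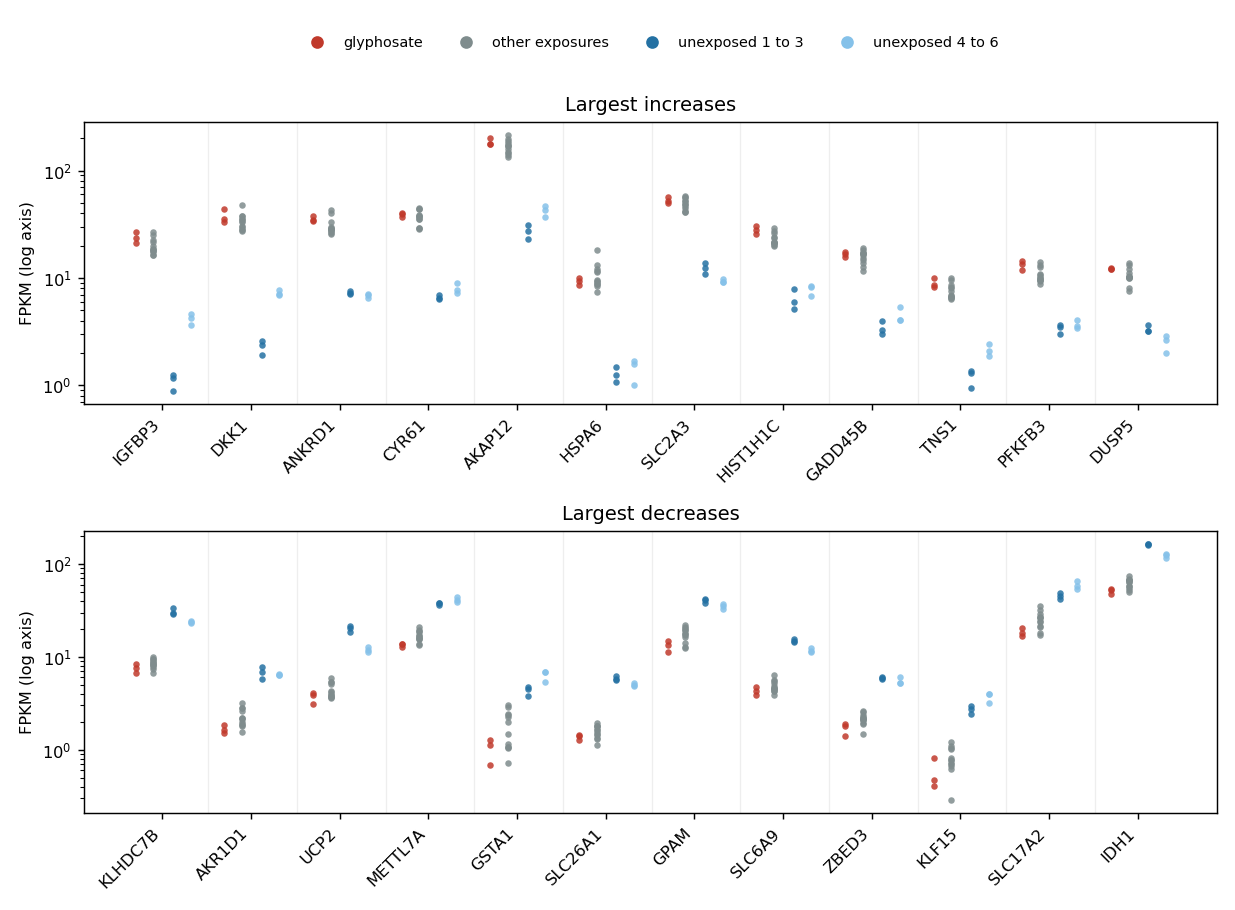
FPKM on a log axis of the 12 protein-coding genes named as higher and the 12 named as lower in glyphosate cells, with 1 point per library for glyphosate, the other exposures, unexposed replicates 1 to 3 and unexposed replicates 4 to 6. In every gene shown the 3 glyphosate points lie outside all 6 unexposed points and near the points of the other exposures. The unexposed sets also lie apart in many of these genes, among them IGFBP3, DKK1, UCP2, AKAP12, TNS1, KLHDC7B and IDH1.

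RNA from the mitochondrial genome moved in 2 directions. Messenger RNAs made up 13.53%, 13.23% and 13.10% of all FPKM in the glyphosate libraries, the lowest values of the 21, and 16.05% to 19.56% in the unexposed libraries. The means were 13.3% ± 0.221 (SD, n = 3) with glyphosate and 17.9% ± 1.16 (SD, n = 6) in unexposed cells, a difference of -4.62 percentage points that is given as a description with no test. As a share of reads, which weights long genes, the values were 4.00% to 4.16% with glyphosate and 4.83% to 6.11% in unexposed libraries. The mitochondrial rRNAs went the other way, at 6.27% to 6.83% of FPKM with glyphosate and 4.23% to 5.16% in unexposed libraries. Total RNA was used, and whether rRNA was depleted is not given in the sources used here. Nuclear copies of mitochondrial sequence can share reads with all of these genes.

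**Figure D2:**
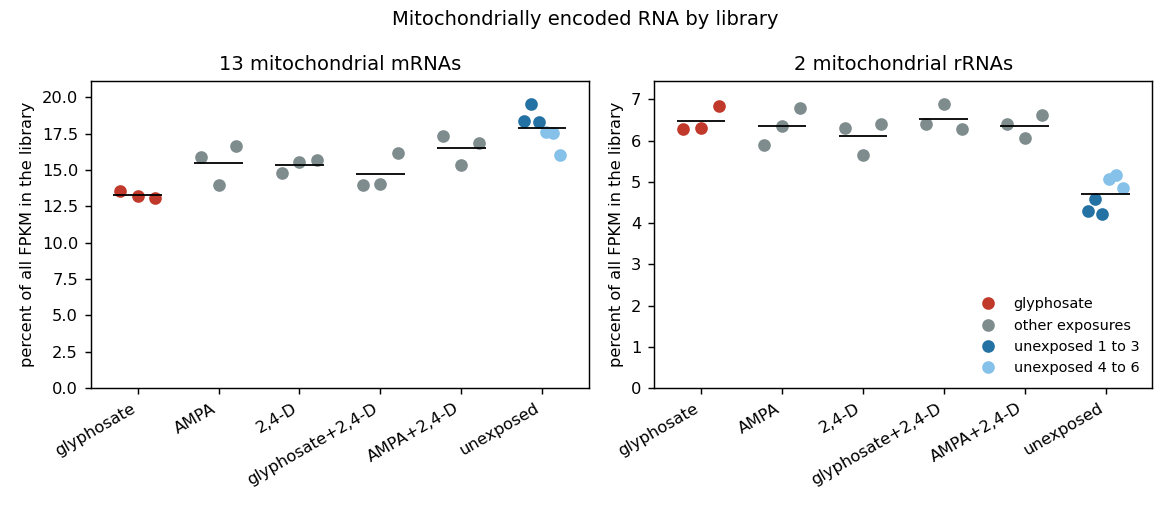
Summed FPKM of mitochondrially encoded mRNAs and of mitochondrial rRNAs as a percent of all FPKM in each of the 21 libraries, by group, with a black line at each group mean. The 3 glyphosate libraries have the lowest mRNA shares (13.10% to 13.53%), while their rRNA shares (6.27% to 6.83%) lie among those of the other exposures and above the unexposed libraries.

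Of the 13 mitochondrial mRNAs, 8 were lower with glyphosate and none was higher, with a median log2 change of -0.49 against 0.01 over all genes tested. They were 5 subunits of complex I, 2 of ATP synthase and MT-CO3 of complex IV. MT-CO3 (mitochondrial chromosome, 9207 to 9990) had 3655, 3447 and 3558 FPKM in glyphosate cells and 5383, 5860, 5270, 5573, 6117 and 5251 FPKM in unexposed cells. The groups did not overlap, and the log2 change was -0.65 ± 0.06 (SE; adjusted p = 1.02e-07). MT-ND1, a core subunit of complex I, had 2605, 2480 and 2439 FPKM with glyphosate and 3435 to 4227 FPKM in unexposed cells (-0.61 ± 0.08). MT-ATP6, a proton channel subunit of ATP synthase, had 2559, 2530 and 2470 FPKM with glyphosate and 3276 to 3685 FPKM in unexposed cells (-0.49 ± 0.09). Both separated the groups. MT-ND2 (-0.49), MT-ND5 (-0.50) and MT-ATP8 (-0.58) were also called against each unexposed set, whereas MT-ND4 and MT-ND4L were called against replicates 1 to 3 but missed the threshold against replicates 4 to 6 (adjusted p = 0.0901 and 0.0632). Against the sets the count of lower mRNAs was 9 and 7 of 13, with MT-CO1 called only against replicates 1 to 3 (-0.21) and MT-CYB, the mitochondrial subunit of complex III, only against replicates 4 to 6 (-0.38).

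The remaining mRNAs did not pass against all unexposed libraries. MT-CO1, the catalytic subunit of complex IV, had 10709, 10393 and 10225 FPKM with glyphosate and 9944 to 12677 FPKM in unexposed cells (-0.13, adjusted p = 0.158). MT-CO2 had 6124 to 6706 FPKM with glyphosate and 5846 to 7231 FPKM in unexposed cells (-0.01 ± 0.06). MT-ND3 had 2604 to 2829 FPKM with glyphosate and 2219 to 3216 FPKM in unexposed cells (0.03 ± 0.11). The groups overlapped in these 3 genes, so the mRNAs of complex IV did not move together. MT-ND6, encoded on the other strand, had 385 to 406 FPKM with glyphosate and 513 to 578 FPKM in unexposed cells, which did not overlap but missed the threshold (-0.47 ± 0.19, adjusted p = 0.0503). Its SE draws on the spread within all groups. That spread includes AMPA+2,4-D, where MT-ND6 had 163 and 156 FPKM in replicates 1 and 3 and 405 FPKM in replicate 2. Across all settings tried, 6 to 12 of the 13 were lower and none higher.

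Among the structural RNAs, MT-RNR1, the small ribosomal subunit RNA, had 4817, 4962 and 5371 FPKM with glyphosate, against 2299 to 2506 FPKM in the first unexposed set and 3725 to 4004 FPKM in the second. It was higher against both, by 1.06 and 0.38 log2. MT-RNR2, the large subunit RNA, had 14415, 14127 and 15570 FPKM with glyphosate and 9435 to 11205 FPKM in unexposed cells (0.52 ± 0.07), a call that was lost when low genes were kept in the fit (adjusted p = 0.323). Of 20 mitochondrial tRNA genes tested 9 were lower and none higher, 7 of them against both sets. MT-TL1, the leucine tRNA between MT-RNR2 and MT-ND1, had 513, 557 and 541 FPKM with glyphosate and 921 to 1293 FPKM in unexposed cells (-0.97 ± 0.10, adjusted p = 2.80e-07). MT-TT, MT-TE and MT-TD had log2 changes of -1.47, -1.37 and -1.27. MT-TL1 thus lay lower beside a neighbour that lay higher on the same precursor strand. The end of MT-RNR2 and the whole of MT-TL1 are shown because no base parts them, with MT-TL1 in capitals, and the overlap of MT-ATP8 and MT-ATP6 because their 46 shared bases (8527 to 8572, in capitals) let reads count for either gene. Both are written 5′ to 3′ from the GENCODE v29 transcripts of GRCh38.

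MT-RNR2/MT-TL1, MT:3210-3304, plus strand: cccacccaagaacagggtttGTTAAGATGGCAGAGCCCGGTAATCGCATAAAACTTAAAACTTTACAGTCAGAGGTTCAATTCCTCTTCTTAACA
MT-ATP8/MT-ATP6, MT:8507-8592, plus strand: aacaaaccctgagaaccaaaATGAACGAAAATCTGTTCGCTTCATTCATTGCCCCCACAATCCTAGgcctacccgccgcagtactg

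**Figure D3:**
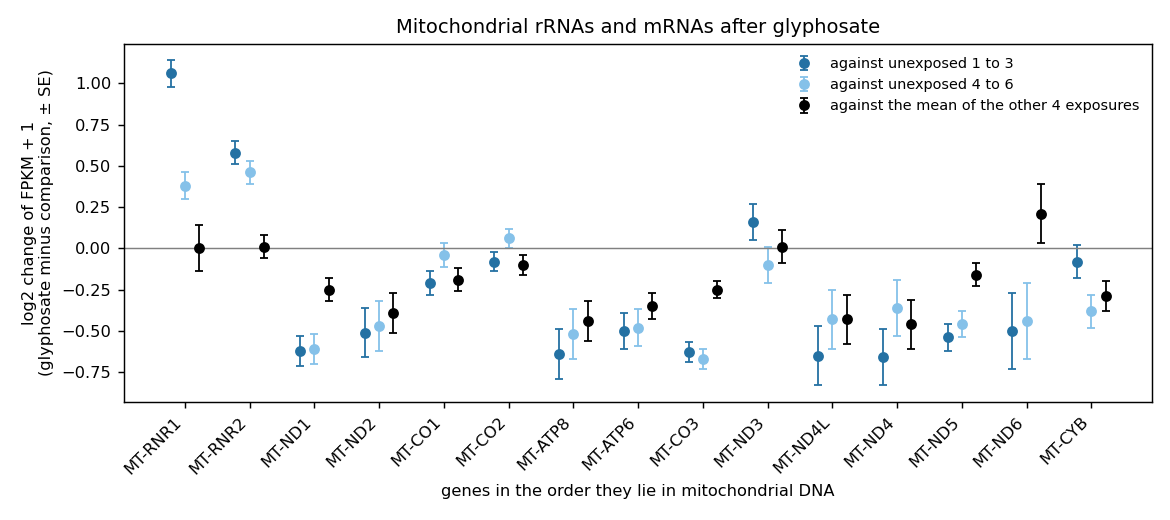
Log2 change (± SE) of the 2 mitochondrial rRNAs and 13 mRNAs in glyphosate cells against unexposed replicates 1 to 3, against replicates 4 to 6 and against the mean of the other 4 exposures, in their order along mitochondrial DNA. MT-ND1, MT-ND2, MT-CO1, MT-ATP8, MT-ATP6, MT-CO3, MT-ND4L, MT-ND4, MT-ND5 and MT-CYB lie below 0 in all 3 comparisons, and the rRNAs lie above 0 against unexposed cells and at 0.00 and 0.01 against the other exposures.

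Nuclear subunit genes of the respiratory complexes and ATP synthase were more often higher than lower, while 8 of the 13 mitochondrial mRNAs were lower. This contrast did not hold in every complex. MT-CYB of complex III and MT-CO1 and MT-CO2 of complex IV were not called against all unexposed libraries. For complexes II to IV 23 of 26 tested subunit genes were higher and none lower (median log2 0.40), for complex I 22 of 36 were higher and 2 lower (0.20), and for ATP synthase 12 of 16 were higher and none lower (0.26), against 27.7% higher and 25.1% lower over all genes. After rescaling without mitochondrial genes the counts were 17 higher and 1 lower for complexes II to IV, 13 and 5 for complex I, and 7 and 2 for ATP synthase, where 16.4% of all genes were higher and 39% lower. For ATP synthase the count also turned on the unexposed set, with 14 higher and none lower against replicates 1 to 3 but 7 higher and 1 lower against replicates 4 to 6. NDUFA2, an accessory subunit of complex I, had 36.0, 35.3 and 35.8 FPKM with glyphosate and 15.3 to 22.0 FPKM in unexposed cells (0.92 ± 0.11, SE). COX6A1, a complex IV subunit, had 67.1, 69.1 and 70.3 FPKM with glyphosate and 41.4 to 47.7 FPKM in unexposed cells (0.62 ± 0.06). ATP5F1E, a subunit of the ATP synthase stalk, had 33.7 to 36.9 FPKM with glyphosate and 18.7 to 23.8 FPKM in unexposed cells (0.71 ± 0.09). In each of the 3 the groups were separate. CYC1, the haem subunit of complex III, was higher against replicates 1 to 3 (0.63) but had 0.04 against replicates 4 to 6, and its call was lost without any 1 of the glyphosate libraries or of unexposed replicates 1 to 3 (adjusted p = 0.076 to 0.121).

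Factors that make and translate mitochondrial RNA did not move in a single direction. POLRMT, the mitochondrial RNA polymerase, had 17.8, 18.6 and 19.2 FPKM with glyphosate and 14.6 to 17.1 FPKM in unexposed cells (0.23 ± 0.05, SE), a call lost after rescaling without mitochondrial genes (adjusted p = 0.178). TFAM, which packages and activates mitochondrial DNA, had 14.5 to 15.7 FPKM with glyphosate and 13.3 to 15.4 FPKM in unexposed cells (0.07 ± 0.05, adjusted p = 0.254). TFB1M, which dimethylates the small rRNA, had 9.89 to 10.9 FPKM with glyphosate and 12.2 to 14.3 FPKM in unexposed cells, and was lower (-0.37 ± 0.06). LRPPRC, which stabilises mitochondrial mRNAs, was higher than replicates 1 to 3 (0.09) and lower than replicates 4 to 6 (-0.12). Over 27 tested genes of mitochondrial transcription and RNA handling 5 were higher and 10 lower (median -0.08). For the 77 mitochondrial ribosomal proteins 21 were higher and 18 lower, but 12 and 30 after rescaling to TPM. Members of mitochondrial import (9 higher and 7 lower of 29) and the tricarboxylic acid cycle (6 and 5 of 19) had 3 higher and 10 lower, and 4 higher and 6 lower, after rescaling to TPM, under which 19.8% of all genes were higher and 33% lower. Cytosolic ribosomal proteins were higher in 54 of 55 genes, none lower (median 0.51), and in 52 to 54 under each scaling. They made up 10.14% to 10.22% of FPKM with glyphosate and 7.20% to 8.42% in unexposed libraries.

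**Figure D4:**
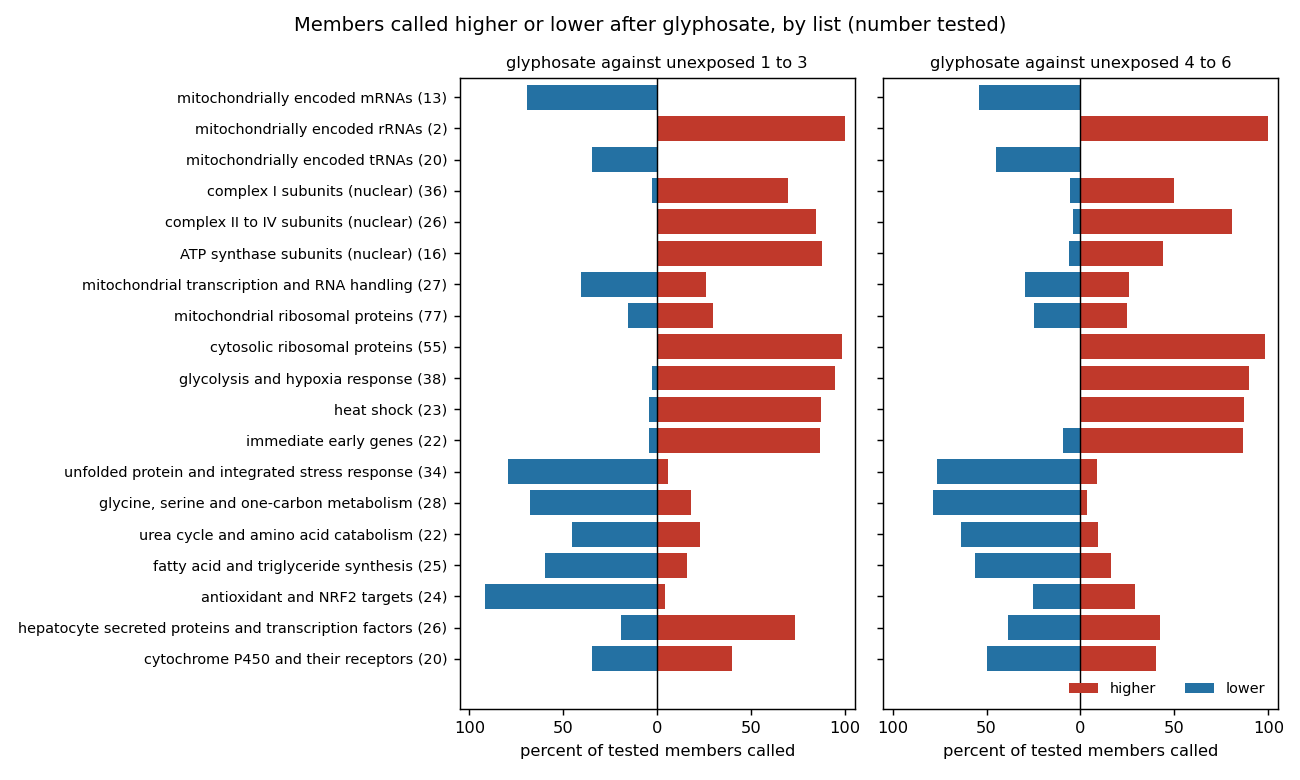
Members of each gene list called higher (right of 0) and lower (left of 0) in glyphosate cells, as a percent of the members tested, against unexposed replicates 1 to 3 (left panel) and replicates 4 to 6 (right panel). Over all genes 29.8% were higher and 27.7% lower in the left panel, and 27.1% and 23.9% in the right. Cytosolic ribosomal proteins, glycolysis and hypoxia, heat shock and immediate early genes extend to the right in both panels, while 22 of 24 NRF2 targets lie to the left in the left panel and 6 of 24 in the right.

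The list of glycolysis and hypoxia response genes had 35 of 38 tested members higher and none lower, with a median log2 change of 0.90. These genes are commonly driven by the factor HIF1, which binds the core ACGTG. Among the enzymes, ENO2, an enolase, had 40.5, 43.1 and 46.4 FPKM in glyphosate cells and 13.4 to 19.2 FPKM in unexposed cells (1.38 ± 0.10, SE; adjusted p = 3.88e-09). LDHA, lactate dehydrogenase A, had 164, 163 and 187 FPKM with glyphosate, against 61.3 to 62.2 FPKM in replicates 1 to 3 and 115 to 124 FPKM in replicates 4 to 6. Both genes were higher than either set, LDHA by 1.46 and 0.51 log2. Among the signals, VEGFA, an angiogenic ligand, had 63.7 to 66.7 FPKM with glyphosate and 29.2 to 41.8 FPKM in unexposed cells. CA9, a carbonic anhydrase used as a hypoxia marker, had 39.7, 37.9 and 31.7 FPKM with glyphosate and 10.8 to 17.1 FPKM in unexposed cells. ADM, the vasodilator adrenomedullin, had 16.2 to 17.3 FPKM with glyphosate against 4.99 to 6.92 FPKM in unexposed cells, and BNIP3, a mitophagy receptor, 113 to 122 FPKM with glyphosate against 48.7 to 76.6 FPKM in unexposed cells. The glyphosate values lay above all unexposed ones in all 4 of these genes. The levels in the other exposures, 28.3 to 42.1 FPKM for CA9 and 33.3 to 46.6 FPKM for ENO2, overlapped those with glyphosate.

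The heat shock genes are known targets of HSF1, and 20 of 23 tested were higher with glyphosate and none lower (median 0.44). HSPA6 had 8.62, 9.30 and 9.96 FPKM with glyphosate and 1.02 to 1.68 FPKM in unexposed cells (2.14 ± 0.16, SE), and HSPA1A 66.1, 71.5 and 75.2 FPKM against 20.4 to 27.2 FPKM in unexposed cells (1.52 ± 0.11). Both have near-identical copies, HSPA7 and HSPA1B, so reads could be shared. The co-chaperones DNAJB1 and DNAJA1 had 82.1 to 88.7 and 71.4 to 77.4 FPKM with glyphosate, against 38.2 to 40.4 and 41.9 to 51.6 FPKM in unexposed cells. HSP90AA1, the inducible cytosolic HSP90, had 193, 196 and 213 FPKM with glyphosate against 99.2 to 113 FPKM in unexposed cells. All 5 genes separated the groups. Of 22 immediate early genes, the first wave of transcription after a stimulus, 19 were higher and 1 lower (median 0.87). JUNB, an AP-1 subunit, had 21.2 to 22.1 FPKM with glyphosate and 7.42 to 8.88 FPKM in unexposed cells, DUSP1, a MAP kinase phosphatase, 48.4 to 50.8 against 16.8 to 21.4 FPKM in unexposed cells, and IER3, an anti-apoptotic early gene, 249 to 269 against 94.7 to 117 FPKM in unexposed cells. The 1 lower gene was MYC, at 45.4 to 48.5 FPKM with glyphosate against 54.8 to 57.1 FPKM in unexposed cells (-0.26 ± 0.04).

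The unfolded protein and integrated stress response lay on the other side, with 26 of 34 tested members lower and 2 higher (median -0.39), 24 and 2 against both unexposed sets. The endoplasmic reticulum chaperone HSPA5 (BiP) had 1303, 1228 and 1196 FPKM with glyphosate and 1731 to 2084 FPKM in unexposed cells (-0.61 ± 0.06, SE; adjusted p = 6.85e-08). Its partners PDIA4, SDF2L1, MANF and CRELD2 had log2 changes of -0.84 to -0.67. DDIT3 (CHOP), the pro-apoptotic factor at the end of the response, had 73.9, 63.8 and 62.0 FPKM with glyphosate and 104 to 140 FPKM in unexposed cells, and NUPR1, a stress cofactor, 5.89 to 6.76 against 12.5 to 17.2 FPKM in unexposed cells. The groups did not overlap in any of these. ATF4, the transcription factor of the integrated stress response, moved less, at 264 to 288 FPKM with glyphosate against 312 to 318 FPKM in unexposed cells (-0.20 ± 0.03), and its target ASNS did not pass (1.62 to 2.08 FPKM with glyphosate against 2.12 to 2.40 FPKM in unexposed cells, -0.17 ± 0.08). PPP1R15A (GADD34), which lets translation resume, was higher, at 48.1 to 50.8 FPKM with glyphosate against 32.2 to 40.1 FPKM in unexposed cells (0.47 ± 0.06).

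Promoters of these 3 lists were searched because their members moved together, using RefSeq promoters of GRCh38.p14 from 250 bases before to 50 after each start and both strands. The hypoxia response core ACGTG, which also forms part of the E-box CACGTG, was in 18 of 34 matched promoters (52.9%) of the glycolysis and hypoxia list and in 21.4% of 35116 promoters. The heat shock element, the triplets GAA, TTC and GAA with 2 bases between neighbours, was in 5 of 21 (23.8%) of the heat shock list and in 0.49% of all. The endoplasmic reticulum stress element, CCAAT and CCACG with 9 bases between them, was in 6 of 31 (19.4%) of the unfolded protein list and in 0.0769% of all. A match is a description of letters and not of binding. The lists hold known members of these responses, so an excess over all promoters would be found whatever the cells did. The shares therefore say nothing of the activity of a regulator in these libraries, and promoters of tested genes alone were not compared. For each list the promoter of the matching member with the smallest p is shown, with the match in capitals. In CRELD2 the element lies on the opposite strand.

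ENO2, chr12:6914330-6914629, plus strand: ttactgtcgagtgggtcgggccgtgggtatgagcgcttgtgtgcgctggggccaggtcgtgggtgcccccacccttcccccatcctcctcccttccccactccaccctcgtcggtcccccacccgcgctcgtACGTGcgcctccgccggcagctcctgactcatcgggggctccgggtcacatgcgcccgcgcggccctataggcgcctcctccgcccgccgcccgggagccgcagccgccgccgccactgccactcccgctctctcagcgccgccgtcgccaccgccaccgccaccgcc
DNAJA1, chr9:33025023-33025322, plus strand: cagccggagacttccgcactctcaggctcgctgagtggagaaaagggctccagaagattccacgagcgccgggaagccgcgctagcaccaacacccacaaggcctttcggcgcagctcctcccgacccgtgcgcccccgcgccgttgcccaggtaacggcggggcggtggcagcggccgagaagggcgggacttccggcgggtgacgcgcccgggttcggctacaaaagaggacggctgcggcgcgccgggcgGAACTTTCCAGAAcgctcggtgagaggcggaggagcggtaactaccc
CRELD2, chr22:49918384-49918683, plus strand: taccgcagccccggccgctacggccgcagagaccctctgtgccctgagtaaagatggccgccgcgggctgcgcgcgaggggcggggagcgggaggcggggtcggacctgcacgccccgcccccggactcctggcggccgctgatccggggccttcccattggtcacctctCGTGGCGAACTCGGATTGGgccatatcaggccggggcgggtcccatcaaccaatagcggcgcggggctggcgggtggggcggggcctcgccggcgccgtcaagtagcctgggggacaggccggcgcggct

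Genes of glycine, serine and folate metabolism were 19 lower and 2 higher of 28 tested (median -0.45). In this list 19 were lower against both unexposed sets, and 5 were higher against replicates 1 to 3. Against the mean of the other exposures the list had a median of -0.07. In that comparison 0 members were called with the unexposed libraries fitted as 1 group. In serine synthesis, PSAT1 had 143, 137 and 132 FPKM with glyphosate and at least 201 FPKM in every unexposed library (-0.68 ± 0.06, SE), and PSPH had 20.8 to 22.2 FPKM against 34.9 to 43.7 FPKM in unexposed cells (-0.84 ± 0.06). In glycine use, SARDH (sarcosine dehydrogenase) had 3.11, 3.50 and 3.14 FPKM with glyphosate and 7.14 to 8.36 FPKM in unexposed cells, and GNMT (glycine N-methyltransferase) 0.464 to 0.816 against 2.10 to 3.99 FPKM in unexposed cells on 10 to 17 reads per glyphosate library. GLDC, the glycine-cleaving decarboxylase, had 2.20 to 2.72 FPKM with glyphosate against 3.17 to 4.49 FPKM in unexposed cells (-0.43 ± 0.09). All 5 lay below every unexposed library. The transporters diverged, with SLC6A9, which takes up glycine, at 4.69, 4.24 and 3.86 FPKM with glyphosate against 11.3 to 15.5 FPKM in unexposed cells (-1.44 ± 0.10) and SLC38A2, which takes up neutral amino acids, at 468, 433 and 472 FPKM with glyphosate against 181 to 244 FPKM in unexposed cells (1.06 ± 0.07). In the folate branch mitochondrial MTHFD2 had 71.1 to 79.4 FPKM with glyphosate against 99.1 to 113 FPKM in unexposed cells.

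In further liver pathways most lists held more lower than higher genes, with the exception of fatty acid oxidation. Of 22 tested genes of the urea cycle and amino acid breakdown 10 were lower and 4 higher (median -0.21), among them ASS1 of the urea cycle, with 28.3, 26.5 and 24.6 FPKM with glyphosate and 56.0 to 63.4 FPKM in unexposed cells (-1.10 ± 0.05, SE). MAT1A, the liver enzyme that makes S-adenosylmethionine, had 19.6 to 22.4 FPKM with glyphosate against 43.0 to 45.6 FPKM in unexposed cells. Of 25 fatty acid and triglyceride synthesis genes 14 were lower and 5 higher (median -0.32). MLXIPL, the carbohydrate-sensing factor ChREBP, had 13.1 to 14.0 FPKM with glyphosate and 24.6 to 32.0 FPKM in unexposed cells, and PLIN4, a lipid droplet coat gene, 1.19 to 1.55 against 3.61 to 4.37 FPKM in unexposed cells. None of these genes overlapped between the groups. PPARA, the receptor that drives fatty acid oxidation, had 2.55 to 2.75 FPKM with glyphosate against 4.88 to 5.86 FPKM in unexposed cells, and EHHADH, a peroxisomal oxidation enzyme, 1.41 to 1.90 FPKM with glyphosate against 2.95 to 4.17 FPKM in unexposed cells. The fatty acid oxidation list held 8 higher and 6 lower of 21 (median 0.09), and 4 and 8 after rescaling to TPM. In this list ACADVL lay higher, at 131 to 134 FPKM with glyphosate against 85.3 to 94.4 FPKM in unexposed cells. So did ETFB, at 32.7 to 35.1 FPKM with glyphosate against 22.0 to 26.5 FPKM in unexposed cells. Of 22 cholesterol genes 7 were lower and 3 higher.

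Hepatocyte secreted proteins and transcription factors did not all move one way. Of 26 tested, 14 were higher and 5 lower (median 0.37), but 11 and 10 against replicates 4 to 6 alone. Among the transcription factors, HNF4A, a master regulator of hepatocytes, had 24.7, 24.1 and 24.8 FPKM with glyphosate and 43.1 to 45.6 FPKM in unexposed cells (-0.84 ± 0.04, SE; adjusted p = 1.70e-11), and CEBPA 14.5 to 15.8 against 29.8 to 39.7 FPKM in unexposed cells (-1.16 ± 0.08). FOXA2 had 22.4 to 24.5 FPKM with glyphosate against 14.1 to 16.4 FPKM in unexposed cells and was higher (0.59 ± 0.05). ALB had 4144, 3831 and 4134 FPKM with glyphosate, against 2249 to 2598 FPKM in replicates 1 to 3 and 3322 to 4004 FPKM in replicates 4 to 6, and overlapped the second set, against which it did not pass (0.13). APOB, the structural protein of low-density lipoprotein, had 342, 334 and 333 FPKM with glyphosate, below 443 to 571 FPKM in unexposed cells (-0.56 ± 0.07). Among 20 tested cytochrome P450 genes and their receptors 9 were higher and 8 lower. The xenobiotic-metabolising CYP2D6, whose pseudogenes can share its reads, had 1.64 to 2.24 FPKM with glyphosate and 3.93 to 6.38 FPKM in unexposed cells, and the electron donor POR 53.5 to 54.8 against 41.3 to 44.9 FPKM in unexposed cells.

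For some genes the result turned on the unexposed set. Of 24 tested NRF2 targets, which encode thiol and NADPH enzymes, 22 were lower and 1 higher against replicates 1 to 3, but 6 lower and 7 higher against replicates 4 to 6. TXNRD1, thioredoxin reductase, had 64.9, 61.5 and 61.1 FPKM with glyphosate, below 104 to 131 FPKM in replicates 1 to 3 and above 36.8 to 39.7 FPKM in replicates 4 to 6 (log2 -0.91 and 0.68). GCLM, the modifier subunit of the enzyme that starts glutathione synthesis, had 5.77 to 7.37 FPKM with glyphosate, against 19.3 to 25.1 FPKM in replicates 1 to 3 and 6.75 to 7.0 FPKM in replicates 4 to 6 (-1.63 and -0.04). The fibrinogen chain FGA had 50.7 to 52.3 FPKM with glyphosate, above 38.1 to 47.4 FPKM in replicates 1 to 3 and below 91.9 to 95.8 FPKM in replicates 4 to 6 (0.30 and -0.86). The membrane receptor DCBLD2 had 22.8 to 24.5 FPKM with glyphosate, against 42.8 to 45.5 FPKM in replicates 1 to 3 and 12.5 to 13.8 FPKM in replicates 4 to 6. The lipoprotein inhibitor APOF had 15.3 to 15.6 FPKM with glyphosate, against 8.18 to 10.8 FPKM in replicates 1 to 3 and 21.3 to 23.2 FPKM in replicates 4 to 6, and so both lay between the sets. Bile duct markers differed between the sets in both directions. The sum of 6 listed markers was 554 to 575 FPKM in glyphosate libraries, 687 to 748 FPKM in replicates 1 to 3 and 369 to 388 FPKM in replicates 4 to 6, mostly from SPP1. SOX9, a transcription factor of the same list, had 37.6 to 39.0 FPKM in glyphosate libraries, 27.9 to 29.6 FPKM in replicates 1 to 3 and 37.4 to 39.5 FPKM in replicates 4 to 6. The sum of 7 listed fibroblast markers was 13.6 to 15.4 FPKM with glyphosate and 16.1 to 24.6 FPKM in unexposed cells, almost all of it ACTA2. The part of these genes in the other results was not tested. Genes named in this paragraph were chosen after their values were seen.

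Against the other exposures, no gene of 13405 (0%) passed when glyphosate was set against the mean of the other 4 group means, with 1143 genes (8.53%) at an unadjusted p under 0.05 and a median 95% interval of ±0.145 log2. No gene passed against AMPA (410 at an unadjusted p under 0.05), 2,4-D (854) or glyphosate+2,4-D (1066), with a median 95% interval of ±0.183 log2. These counts come from the fit with the unexposed libraries as 1 group. The difference between the 2 unexposed sets entered its spread, although no unexposed library was compared here. This fit therefore had less power for genes in which the sets differed. With the sets as 2 groups, a setting added after the data were seen, 21 genes passed against the mean of the other exposures. Under that setting 30 passed against glyphosate+2,4-D and 0 against AMPA or 2,4-D. AMPA is glyphosate without the carboxymethyl group on its nitrogen and was given at another concentration, so these values do not compare matched doses. Glyphosate+2,4-D held the same glyphosate concentration, and a p that misses the threshold does not show that adding 2,4-D made no difference. Against AMPA+2,4-D 493 genes (3.68%) were called, 316 higher (2.36%) and 177 lower (1.32%), but none with AMPA+2,4-D represented by replicate 2 alone (limma, 830 at an unadjusted p under 0.05). That last fit takes the spread of the lone library from the other groups and has less power, so it does not show that the 493 calls came from replicates 1 and 3. The count was 125, 60 and 9 without glyphosate replicates 1, 2 and 3, and 0, 1034 and 49 without AMPA+2,4-D replicates 1, 2 and 3.

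The mitochondrial mRNA share with glyphosate (13.10% to 13.53%) was below that with AMPA (13.96% to 16.67%), 2,4-D (14.80% to 15.68%), glyphosate+2,4-D (13.95% to 16.20%) and AMPA+2,4-D (15.36% to 17.35%), without overlap. Of the 13 mRNAs 11 lay below the mean of the other exposures, where 49% of all genes did. The mRNAs are cut from shared precursors and do not vary independently, so this count was not tested. MT-CO3 averaged 3899 FPKM with AMPA, 4104 with 2,4-D, 4335 with glyphosate+2,4-D and 4643 with AMPA+2,4-D, and its 3447 to 3655 FPKM with glyphosate reached into the range of the other exposures (3646 to 5029 FPKM). It had a log2 difference of -0.25 ± 0.05 (SE) from their mean, with adjusted p = 0.260, and 0.0543 with the unexposed libraries fitted as 2 groups. MT-ND1 (2439 to 2605 FPKM, others 2695 to 3495), MT-ATP6 (2470 to 2559, others 2610 to 3803) and MT-CO1 (10225 to 10709, others 10801 to 13095) lay below all 12 other exposed libraries without passing, as did MT-TL1 (513 to 557, others 570 to 853). None of the mitochondrial genes passed this test. Against AMPA+2,4-D, MT-ATP8 (-0.97 ± 0.15), MT-ATP6 (-0.51 ± 0.11), MT-CO3 (-0.38 ± 0.07) and MT-TL1 (-0.50 ± 0.11) were called lower. MT-ND6 (0.86 ± 0.22) and the serine tRNA MT-TS1 (1.39 ± 0.28) were called higher, but were low only in AMPA+2,4-D replicates 1 and 3, the libraries that stood apart. MT-ATP8 and MT-TL1 were also highest in those libraries, at 435 and 485 FPKM and at 826 and 853 FPKM. In replicate 2 they had 309 and 620 FPKM. MT-ATP6 had 3490, 3500 and 3800 FPKM and MT-CO3 5030, 4300 and 4600 FPKM in AMPA+2,4-D replicates 1, 2 and 3.

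With the unexposed libraries fitted as 2 groups, a setting added after the data were seen, 21 genes were called against the mean of the other exposures. Of these 8 were higher and 13 lower with glyphosate, with adjusted p of 0.0349 to 0.0447 (limma). Only 8 of the 21 had all glyphosate libraries outside the 12 other exposed libraries. All 21 differed in the same direction from unexposed cells. In lipid and amino acid metabolism, SLC27A2, which activates very long chain fatty acids, had 4.68, 4.52 and 4.96 FPKM with glyphosate, below all 12 other exposed libraries (4.98 to 6.89 FPKM; log2 -0.27 ± 0.05, SE). APOB had 333 to 342 FPKM with glyphosate, against 356 to 436 FPKM in the other exposures (-0.20 ± 0.03), and ELOVL2, which elongates polyunsaturated fatty acids, 30.8 to 32.5 FPKM with glyphosate against 33.5 to 44.5 FPKM in the other exposures (-0.21 ± 0.04). These 3 did not overlap the other exposures. IDH1 (-0.26), PSAT1 (-0.20), ALDH1B1 (-0.24), a mitochondrial aldehyde dehydrogenase, and SEPHS2 (-0.13), which makes selenophosphate, overlapped the AMPA libraries or, for ALDH1B1, 1 library with 2,4-D alone. Among higher genes, the cytokine IL11 had 12 to 13.4 FPKM with glyphosate against 7.29 to 11.8 FPKM in the other exposures (0.39 ± 0.07) and the actin-binding TAGLN 8.15 to 8.33 FPKM with glyphosate against 5.46 to 7.95 FPKM in the other exposures (0.25 ± 0.04). GPX4, the lipid peroxide reductase, had 106, 111 and 107 FPKM with glyphosate against 81.8 to 106 FPKM in the other exposures (0.16 ± 0.03), and the stress gene PPP1R15A had a log2 difference of 0.15. RPS28 and the pseudogene RPS7P10 were also called, and both belong to families with near-identical copies.

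In several of these genes AMPA lay next to glyphosate. TECTB, a tectorial membrane protein gene, had 1.74, 1.36 and 1.30 FPKM with glyphosate and 1.49, 1.41 and 1.14 FPKM with AMPA, against 2.14 to 3.14 FPKM in the 9 libraries with 2,4-D. IL11 had 11.5 to 11.8 FPKM with AMPA and 7.29 to 9.95 FPKM in the libraries with 2,4-D, and IDH1 had 49.9 to 54.5 FPKM with AMPA and 58.1 to 73.8 FPKM in the libraries with 2,4-D. For TECTB and IDH1 the glyphosate and AMPA values overlapped and both lay below the libraries with 2,4-D, which was not tested. Over all genes, 114 (0.85%) had all 3 glyphosate libraries outside the 12 other exposed libraries, 48 higher (0.358%) and 66 lower (0.492%), and 82 of the 114 were also called against unexposed cells in the same direction and 3 in the opposite one.

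**Figure D5:**
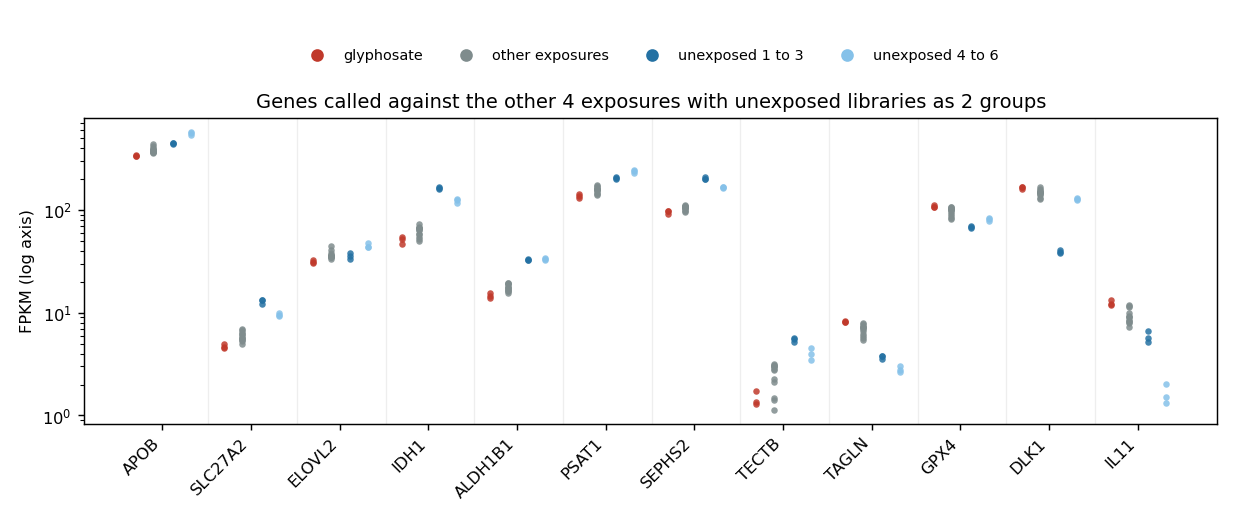
FPKM on a log axis of 12 of the 21 genes called against the mean of the other 4 exposures with the unexposed libraries fitted as 2 groups, with 1 point per library for glyphosate, the other exposures, unexposed replicates 1 to 3 and unexposed replicates 4 to 6. The glyphosate points lie within or past that end of the range of the other exposures which is farther from the unexposed points.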

How the data were processed

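Per the labels' protocols, total RNA was extracted (QIAzol, RNeasy) and a SMARTer kit was used for the libraries. HISAT2 2.0.5, featureCounts 1.5.0-p3 and GRCh38 are named in the submitters' processing notes. The authors deposited FPKM per gene in 6 tables, 1 per group, which were joined on gene ID. The labels of the glyphosate libraries name their table with 1 letter more than the deposited one has, and its columns were matched by name. A gene with no row in a table was left out, which set aside 45 genes that otherwise reached the filter, none protein-coding.

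Genes with at least 1 FPKM in 3 of the 21 libraries were tested on log2(FPKM + 1) with limma 3.58.1 in R 4.3.3 (group means over all libraries, variance trend, Benjamini-Hochberg adjusted p under 0.05). Fold changes are on that scale, which understates changes of low genes. For the unexposed sets, replicates 1 to 3 and 4 to 6 were fitted as groups of their own. FPKM and gene lengths gave back whole reads for 99.99% to 100.0% of values (tolerance 0.1 read), and these gave the depths of 15202557 to 24352443 reads and a voom fit as an alternative, which called 7282 genes. The test was checked on simulated data. Figures used matplotlib 3.10.9.

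The members and the 36 gene lists were chosen with earlier results of these data known. Named genes were, for each direction, the 12 protein-coding genes and 5 of other types with the largest smaller change against the 2 unexposed sets among those called against all 6 unexposed libraries and against each set, without overlap, all mitochondrial mRNAs and rRNAs, up to 4 members of each list by smallest p, and CYP1A1, CYP2B6, HMOX1, CDKN1A, ALB and AFP. Other genes named were chosen after their values were seen, and some genes are not reported here. Alternatives covered pseudocount, filter, scaling, groups in the fit, replicate block, reads and leaving out each library.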

Additional observations from a re-analysis of the deposited data

Results flagged for a closer look

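Among 228 sets of 6 unexposed values tested with Dixon's ratio at its 95% critical value, 7 held a library far from the others. Chance would give about 11.4 for values from 1 population, but the unexposed libraries formed 2 sets. A gap between the sets widens the range and lowers the ratio, so 7 and 11.4 cannot be compared. MT-ATP6 had 3276 FPKM in unexposed replicate 6 and 3539 to 3685 FPKM in the rest, a ratio of 0.643. MT-TP, the proline tRNA, had 116 FPKM in replicate 3 and 75.6 to 90.1 FPKM in the rest (0.641). HPD, a tyrosine breakdown enzyme, had 183 FPKM in replicate 3 and 202 to 209 FPKM in the rest (0.731). LONP1, a mitochondrial protease, had 60.6 FPKM in replicate 2 and 61.8 to 62.5 FPKM in the rest (0.632), and AL928921.1 had 19.5 FPKM in replicate 2 and 15.3 to 16.7 FPKM in the rest (0.667). ALDH1B1 had 34.5 FPKM in replicate 5 and 32.3 to 33.1 FPKM in the rest (0.636), and EPCAM had 78.2 FPKM in replicate 4 and 84.1 to 87.4 FPKM in the rest (0.641). Groups of 3 libraries were not tested in this way.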

How the results depend on the processing

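Of 204 named genes called against unexposed cells, 188 were called under every setting. Many of them were named for the size or the p of that same change, so this does not speak for all genes called. Leaving out a library gave 6038 to 7115 calls against unexposed cells, 7101 to 7198 against replicates 1 to 3, 6159 to 6277 against replicates 4 to 6, 0 to 67 against the mean of the other exposures (67 without AMPA+2,4-D replicate 2, 1 without 2,4-D replicate 3) and 0 to 1034 against AMPA+2,4-D. It gave 0 calls against AMPA, 2,4-D and glyphosate+2,4-D, and a mitochondrial share difference of -4.99 to -4.29 points, which was -1.41 as a share of reads. Without the filter on low values 21 genes were called against the other exposures, 14 against AMPA, 12 against 2,4-D, 24 against glyphosate+2,4-D and 273 against AMPA+2,4-D. With the compared groups alone the counts were 1 against the other exposures and 0 against AMPA+2,4-D (2940 at an unadjusted p under 0.05). With the unexposed libraries as 2 groups they were 21 against the other exposures, 30 against glyphosate+2,4-D and 1429 against AMPA+2,4-D, and with AMPA+2,4-D replicate 2 alone 0. The causes were not tested.

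Replicate numbers did not pair the libraries: the correlation of deviations ran from -0.119 to 0.088 over 45 same-numbered pairs, and 8 of 18 libraries correlated best with their own number. With the replicate number as a block 7497 genes were called against unexposed cells. That count is the one against replicates 1 to 3, because replicates 4 to 6 share their numbers with no other library. It is therefore not a result against all 6 unexposed libraries. The block counts were 3 against the other exposures, 1 against 2,4-D, 13 against glyphosate+2,4-D and 1064 against AMPA+2,4-D. No block value could be fitted against replicates 4 to 6. The block also turned the log2 change to 0.51 for AGXT, 0.30 for FGA, 0.09 for LRPPRC, -0.49 for SPP1 and 0.57 for UGT2B10, as did replicates 1 to 3 alone, which gave -0.18 for KRT19. Replicates 4 to 6 alone gave -0.50 for APOF, 0.82 for DCBLD2 and 0.68 for TXNRD1, and rescaling without mitochondrial genes -0.06 for EPCAM and -0.11 for NFE2L2. Depth limits genes with few reads, such as MIR6772.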

Other observations

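Cell cycle and p53 target genes differed among themselves. Of 34 tested cell cycle genes 15 were higher with glyphosate and 6 lower, with 10 lower against replicates 4 to 6, and 11 and 9 after rescaling without mitochondrial genes. CDC20, an activator of the anaphase ligase, had 7.78 to 8.80 FPKM with glyphosate and 11.4 to 16.3 FPKM in unexposed cells (log2 -0.73 ± 0.10, SE), while CDK2, an S-phase kinase, had 5.60 to 6.77 FPKM with glyphosate and 3.99 to 4.65 FPKM in unexposed cells (0.43 ± 0.06). Of 19 p53 targets 10 were higher and 4 lower, with 6 higher against replicates 4 to 6, and 5 and 6 after the same rescaling. GADD45A, a DNA damage response gene, had 60.9 to 61.4 FPKM with glyphosate and 32.9 to 44.4 FPKM in unexposed cells (0.62 ± 0.08), and TP53I3, a quinone oxidoreductase gene, 14.8 to 16.2 FPKM with glyphosate and 27.2 to 40.3 FPKM in unexposed cells (-1.05 ± 0.10). The groups did not overlap in these 4 genes.

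Gene types differed in direction. Called the same way against both unexposed sets were 68 higher and 12 lower of 396 processed pseudogenes, 42 higher and 108 lower of 835 antisense genes, 50 higher and 77 lower of 436 lincRNAs and 14 higher and 2 lower of 131 snoRNAs, against 2523 higher and 2123 lower of 10512 protein-coding genes. Processed pseudogenes can share reads with their parent genes, including the ribosomal proteins, and that part was not tested. Of 8 tested members of a list of abundant long noncoding RNAs and snoRNA host genes 5 were lower and 2 higher, among the lower OIP5-AS1 with 6.09 to 6.76 FPKM with glyphosate and 9.75 to 12 FPKM in unexposed cells (-0.66 ± 0.05). Of 8 tested estrogen receptor genes and targets 3 were higher and 2 lower, against 27.7% higher and 25.1% lower over all genes. The estrogen receptor genes ESR1 and ESR2 did not reach the filter, with at most 0.014 and 0.018 FPKM in any library. TFF1, an estrogen-responsive secreted peptide gene, had 2.43 to 3.80 FPKM with glyphosate and 0.375 to 1.07 FPKM in unexposed cells (1.20 ± 0.15), and GPER1, a membrane estrogen receptor, 4.09 to 4.43 FPKM with glyphosate and 5.48 to 7.44 FPKM in unexposed cells (-0.46 ± 0.08). These genes were chosen after their values were seen.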
